A study of Mus musculus with 3 samples.

Results

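The cells described here are follicular helper-like T cells of the mouse mesenteric lymph node, the node that drains the gut. A barcode was a member when it held at least 2 CD3 transcripts (unique molecular identifiers, UMIs, summed over Cd3d, Cd3e and Cd3g), no UMI of Cd8a, Cd8b1, Foxp3, Cd79a or Ms4a1, and a UMI of at least 2 of the 5 genes Cxcr5, Pdcd1, Il21, Bcl6 and Tox2. This rule found 351 members among 67002 kept barcodes in 3 libraries, of which 146 came from the citrate buffer library, 78 from the free OVA library and 127 from the LysoPS-OVA library. Over 4 weeks of oral feeding the mice received plain citrate buffer (5 mM), free ovalbumin (OVA, 1 µg), or the same dose of OVA loaded into lyso-phosphatidylserine nanoparticles (LysoPS-OVA). Each library pooled the nodes of 6 animals, so a group is 1 sample. No test between groups can be made, every interval below is a 95% interval for counting error alone, and library and treatment cannot be told apart. Values for the 3 libraries are given in the order citrate buffer, free OVA, LysoPS-OVA unless stated.

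Follicular helper T cells are CD4 T cells that enter B cell follicles, where they give germinal centre B cells help through CD40 ligand, IL-21 and IL-4. The repressor BCL6 directs the program, the chemokine receptor CXCR5 guides the cells into the follicle, and PD-1, ICOS and the adaptor SAP shape their contact with B cells. In gut-draining nodes they support the class-switched antibody response to food and microbial antigens, and follicular regulatory T cells, which share much of the program but carry FOXP3, restrain them.

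Deposited barcodes numbered 28927, 28660 and 20873, more than the 10000 cells loaded per library, with total UMIs of 96616683, 81559237 and 84089686. Kept barcodes had no fewer than 300 detected genes, and mitochondrial genes gave no more than 10% of their UMIs. Pairs of libraries shared 166 to 194 barcode sequences, no member was a member in a second library, and 4 members had a sequence that recurred elsewhere. The median member held 5236.5, 6149 and 5292 UMIs, against 3416, 4667 and 4774 in barcodes of the same gate without any of the 5 markers. A doublet caller marked 13.7%, 3.85% and 3.94% of members, and 21.2%, 7.69% and 11.8% of members had under 10% of their UMIs in ribosomal protein genes. A Cd4 UMI was present in 58.9%, 62.8% and 66.9% of members and in 39.7%, 43.5% and 54.7% of marker-free barcodes. Xist, which is transcribed in female cells, was at 417, 139 and 131 CPM (defined below) in members and at 295, 130 and 130 CPM in marker-free barcodes, so the buffer library stood apart, while the summed Y-linked genes were at 267, 298 and 302 CPM in members. The labels give no sex for the pooled animals, and its part in the differences between libraries was not tested.

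Members made up a like share of the CD4-like gate, which is the same rule without its marker part, in each library. There were 146 of 3578 gate barcodes in the citrate buffer library (4.08%, exact binomial interval 3.46 to 4.78), 78 of 2054 in the free OVA library (3.80%, 3.01 to 4.72) and 127 of 3063 in the LysoPS-OVA library (4.15%, 3.47 to 4.91). The ratio of shares was 1.02 (0.805 to 1.28) for LysoPS-OVA over buffer, 0.931 (0.711 to 1.22) for free OVA over buffer and 1.09 (0.828 to 1.44) for LysoPS-OVA over free OVA, so no pair differed beyond counting error. Each barcode was also thinned to 2000 UMIs, which left out 676, 440 and 167 shallower gate barcodes, and the whole rule was applied again. The gate formed in this way held 3719, 1888 and 3517 barcodes. It is not the same set of cells, since barcodes excluded at full depth could lose the UMIs that excluded them. The shares in it were 1.86%, 1.69% and 1.17%, and LysoPS-OVA over buffer was 0.628 (0.428 to 0.922). The same ratio was 0.692 (0.486 to 0.986) when Bcl6 was dropped from the rule and 1.30 (0.980 to 1.72) when Tox2 was dropped, so its side of 1 depended on which markers counted. As a share of all kept barcodes, members were 0.554%, 0.334% and 0.733%. On that base the ratio was 1.32 (1.04 to 1.68) for LysoPS-OVA over buffer and 0.603 (0.459 to 0.794) for free OVA over buffer. It was 2.19 (1.66 to 2.91) for LysoPS-OVA over free OVA, so these 3 intervals left out 1. Such ratios also depend on how many kept barcodes fell in the gate.

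The CD8 gate, whose cells should lack a follicular helper program, was taken as a reference for the marker rule. There, 54 of 1463 (3.69%, 2.78 to 4.79), 14 of 615 (2.28%, 1.25 to 3.79) and 36 of 938 barcodes (3.84%, 2.70 to 5.27) held at least 2 of the 5 markers. These intervals overlapped those of the CD4-like gate in each library. Median depths were 4621, 6750 and 5885.5 UMIs against 3608.5, 5065.5 and 4925 in the CD4-like gate. With both gates formed again at 2000 UMIs, the CD8 shares were 0.748%, 0.231% and 0.414%, on 9, 1 and 3 barcodes. They were below the CD4-like shares in every library. Requiring Pdcd1, Il21 or Tox2 among the markers left 110 members (3.07% of the gate, 2.53 to 3.69), 51 (2.48%, 1.85 to 3.25) and 81 (2.64%, 2.11 to 3.28), against 1.71%, 0.325% and 1.49% of the CD8 gate.

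**Figure D1:**
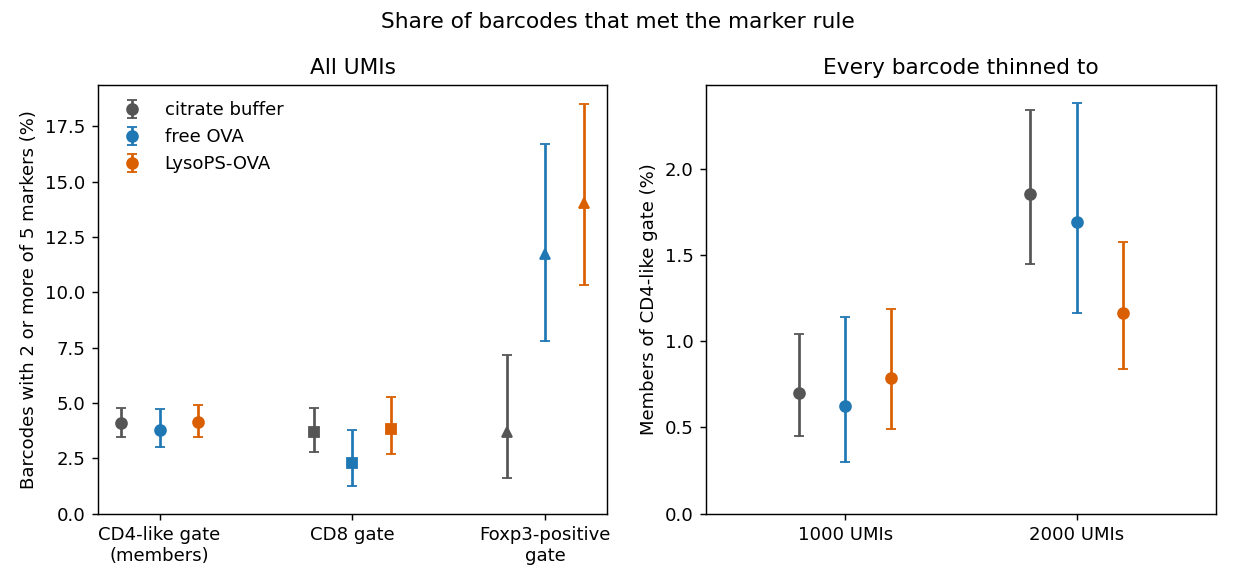
Share of barcodes with at least 2 of the 5 markers, in percent, by gate (left, all UMIs) and for the CD4-like gate after thinning to 1000 or 2000 UMIs (right); points are single libraries and bars 95% exact binomial intervals for counting error. The CD4-like shares lie between 3.80% and 4.15%, while the Foxp3-positive gate ranges from 3.70% in the buffer library to 14.0% in the LysoPS-OVA library.

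The members were chosen by the measured UMIs of the 5 rule genes, which are therefore given as a description. Cxcr5 was present in 60.3%, 65.4% and 59.1% of members, at 154, 139 and 134 CPM (UMIs of the gene per 1000000 UMIs, both summed over members). Bcl6 was present in 61.6%, 83.3% and 78.0% of members at 175, 287 and 215 CPM. Pdcd1, which encodes PD-1, was present in 31.5%, 41.0% and 32.3% and Il21 in 19.9%, 15.4% and 17.3%. Tox2, a transcription factor of the follicular helper program, was present in 63.7%, 37.2% and 40.9% of members, at 264, 120 and 121 CPM. Since a Tox2 UMI counts toward membership, no comparison between libraries is drawn from these levels. Outside the members a Tox2 UMI was found in 3.01%, 1.14% and 1.28% of CD8-gate barcodes and in 2.22%, 1.33% and 1.36% of B-gate barcodes.

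The markers differed in how their shares compared with those of the CD8 gate. In the whole CD4-like gate, Cxcr5 was present in 7.38%, 5.45% and 6.66% of barcodes and Bcl6 in 15.8%, 19.4% and 21.7%, no more than the 8.61%, 7.48% and 8.42% for Cxcr5 and the 16.0%, 21.8% and 23.2% for Bcl6 in the CD8 gate. The CD8 gate had the higher median depth in each library, and these shares were not matched for depth. Whether they are background was not tested. Tox2 was above its CD8-gate share in each library (5.67%, 3.31% and 2.94% of the CD4-like gate), and so was Pdcd1 (2.43%, 2.24% and 2.51% against 0.957%, 1.30% and 2.13%), narrowly in the LysoPS-OVA library. Il21, the defining helper cytokine, was present in 1.15%, 0.730% and 0.914% of the CD4-like gate against 0.889%, 0.163% and 0.320%.

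Just outside the threshold lay 813, 451 and 774 barcodes with 1 marker, for which that marker was Bcl6 in 58.3%, 74.1% and 73.0%. Just inside lay 108, 58 and 100 members with 2 markers, and 38, 20 and 27 members held 3 or more. Maf stood at 96.0, 79.1 and 82.1 CPM with 1 marker, at 422, 498 and 421 CPM with 2, and at 1241, 1422 and 992 CPM with 3 or more. Icos, Tox, Tbc1d4 and Nt5e were likewise higher at each added marker in each library, and those of Klf2 and Lef1 were lowest with 3 or more markers.

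**Figure D2:**
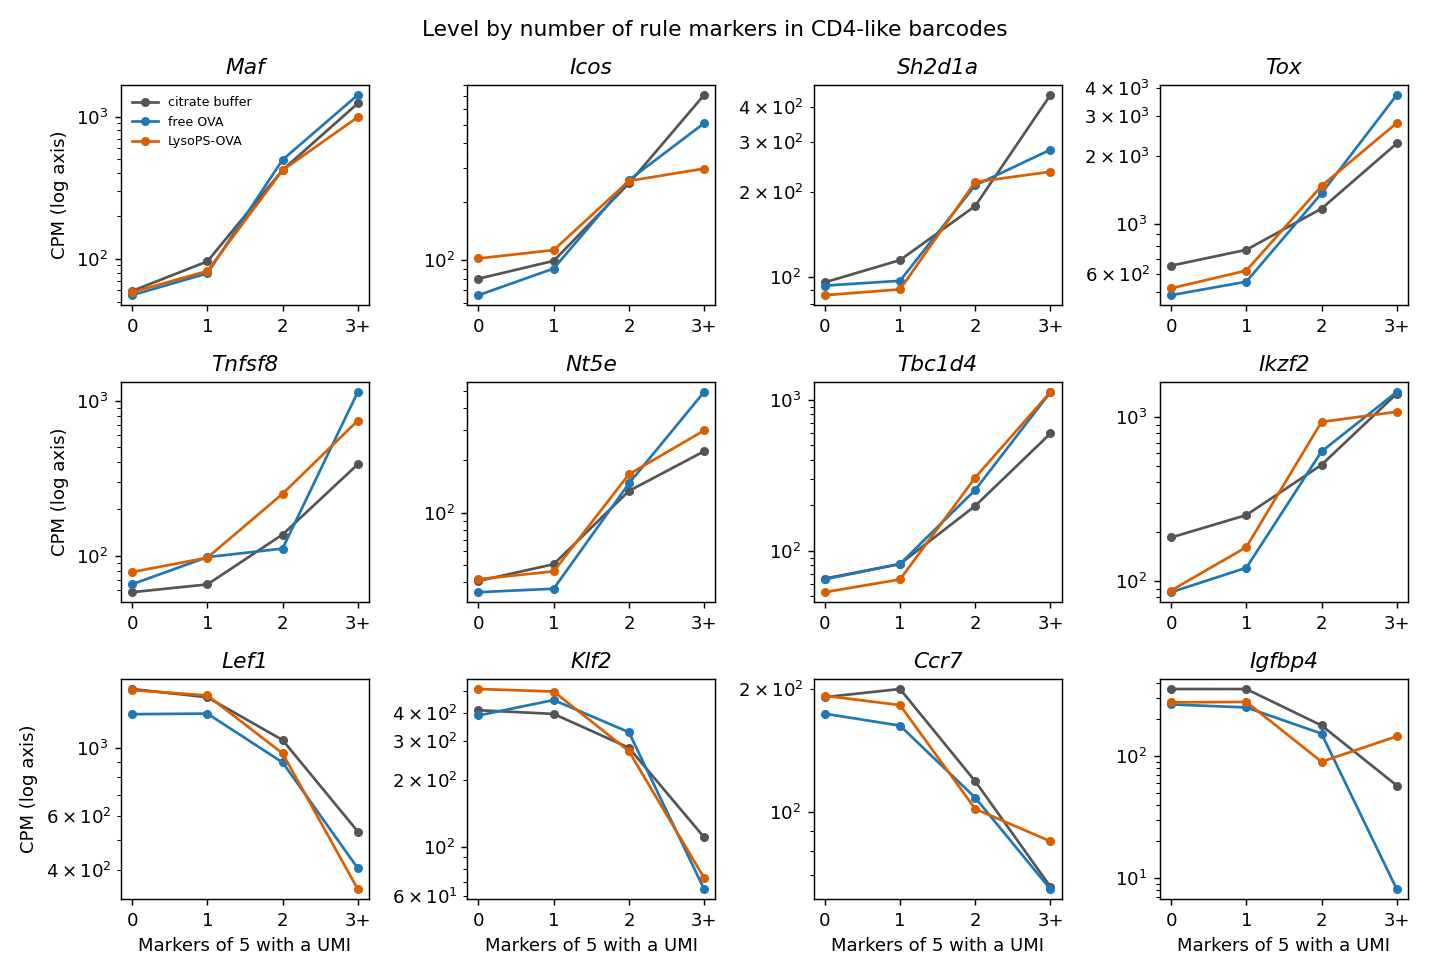
CPM on a log axis for 12 genes that the rule did not use, in CD4-like barcodes with 0, 1, 2, or 3 and more of the 5 markers; 1 line per library. Maf and Tbc1d4 are highest and Lef1 and Klf2 lowest with 3 or more markers in all 3 libraries, and barcodes with 1 marker lie close to those with none.

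Genes outside the rule were compared between members and marker-free CD4-like barcodes of the same library, as a description of the same cells that the rule split. Of 3103 genes measured well enough in all 3 libraries, 181 (5.83%) were at least 1.5-fold higher in members in every library and 20 (0.645%) at least 1.5-fold lower. In single libraries, 11%, 13.2% and 11.9% of genes were higher and 2.19%, 2.56% and 2.17% lower. Fold calls used log2 of CPM plus 10, whereas the plain ratios quoted for genes carry no such constant.

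Among the surface and help molecules of follicular helper cells, 8 of the 14 measured genes (of 17 listed) were higher in members in every library and none was lower. Their median log2 difference was 0.89, 0.95 and 1.14, beside 0.13, 0.12 and 0.17 over all genes. Icos, the costimulatory receptor that sustains the program, stood at 390, 323 and 265 CPM in members and at 79.9, 65.7 and 102 CPM in marker-free barcodes. The ratio of these summed levels was 4.88, 4.91 and 2.60, and an Icos UMI was present in 54.8%, 50% and 55.9% of members. Sh2d1a encodes SAP, the adaptor needed for long contact with B cells; it was at 259, 230 and 221 CPM against 95.5, 93.0 and 86.0. Slamf6, a SLAM receptor that signals through SAP, was at 417, 296 and 440 CPM against 185, 160 and 211, whereas the related Cd84 was under 1.5-fold apart in each library (209, 205 and 225 CPM against 142, 155 and 186).

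Tnfsf8, which encodes the CD30 ligand, was at 214, 374 and 359 CPM in members and at 58.1, 65.4 and 78.5 CPM in marker-free barcodes. Izumo1r, the folate receptor family gene that encodes FR4, was at 323, 430 and 401 CPM, and Nt5e, which encodes the ectoenzyme CD73, at 161, 236 and 195 CPM. Nt5e was 3.97, 6.73 and 4.68 times its marker-free level. Cd200 was at 73.8, 82.7 and 83.5 CPM against 29.6, 13.6 and 18.3, and the inhibitory receptor gene Btla at 163, 145 and 160 CPM against 96.0, 64.5 and 67.4. All genes of this group named so far except Cd84 were higher in members in each library. Cd40lg, the CD40 ligand through which helper cells license B cells, was at 175, 110 and 176 CPM, which was 1.64, 1.02 and 1.28 times the marker-free level. The IL-6 receptor gene Il6ra was at 168, 141 and 109 CPM against 209, 169 and 188, and its partner Il6st at 268, 238 and 283 CPM against 185, 137 and 160.

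A few genes of mature follicular helper cells were too sparse for a fold call in every library. Sostdc1, a secreted antagonist of BMP and Wnt signalling, had 9, 12 and 28 UMIs in 2, 2 and 6 members, while marker-free barcodes held 0 UMIs in the buffer and free OVA libraries. In the free OVA library 11 of the 12 Sostdc1 UMIs came from 1 barcode. Angptl2 had 14, 29 and 41 UMIs in 8, 12 and 17 members, at 17.5, 60.0 and 54.3 CPM against 4.24, 2.35 and 2.29. The helper cytokine gene Il4 had 4, 13 and 13 UMIs in 2, 5 and 7 members, and the Tfh transcription factor gene Ascl2 had 2, 8 and 5 UMIs.

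Among transcription factors of the program, 6 of the 10 genes measured in all libraries (of 13 listed) were higher in members in every library and 1 was lower. Maf, which encodes c-MAF and drives Il21 and Il4, was at 672, 734 and 546 CPM in members and at 59.5, 55.6 and 58.3 CPM in marker-free barcodes. It was 11.3 (10.0 to 12.7), 13.2 (11.4 to 15.3) and 9.36 (8.24 to 10.6) times higher, and was seen in 93 of 146, 43 of 78 and 67 of 127 members. Tox, an HMG-box factor, was at 1505, 1971 and 1763 CPM against 652, 482 and 517. Batf and Irf4, partners on AP-1 composite sites, were at 111, 95.1 and 55.6 CPM and at 95.1, 66.2 and 51.7 CPM. The marker-free levels of Batf were 36.1, 31.1 and 33.7 CPM and those of Irf4 17.3, 7.04 and 12.8. Nfatc1, a calcium-dependent factor, was at 178, 145 and 188 CPM against 70.1, 60.7 and 63.2, and Ikzf3, which encodes Aiolos, at 390, 271 and 350 CPM against 231, 131 and 170.

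Tcf7 and Lef1, 2 HMG-box factors that act early in the program and also mark naive T cells, parted from each other. Tcf7, which encodes TCF-1, was at 527, 360 and 411 CPM in members, 1.13, 1.0 and 1.10 times the marker-free level. Lef1 was at 898, 769 and 824 CPM, 0.578, 0.598 and 0.534 times that level, and was the 1 factor of the list that was lower in every library.

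Of the follicle entry and exit list, 6 of 10 genes were measured in all libraries, 3 were lower in members of each and none was higher in every library. Ccr7, the receptor that holds T cells in the T zone, was at 103, 97.2 and 98.0 CPM against 191, 174 and 193. S1pr1, the egress receptor, was at 160, 205 and 139 CPM against 342, 327 and 349. Gpr183, which encodes EBI2, a receptor that draws cells to the follicle edge, was at 220, 209 and 325 CPM against 117, 159 and 235. S1pr2, which retains cells in germinal centres, had 9, 3 and 4 UMIs. Klf2, the factor that drives S1pr1, was at 228, 261 and 227 CPM against 412, 390 and 513. Of the naive T cell list, 7 of 11 measured genes were lower in every library and none was higher, with a median log2 difference of -0.83, -0.65 and -0.92.

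Of 14 genes of programs that oppose the follicular helper fate, 9 were measured in all libraries, 2 were higher in each and 1 was lower. The higher ones were the IL-2 receptor chain genes. Il2ra, the high-affinity chain, was at 95.1, 64.1 and 62.3 CPM against 30.7, 23.2 and 21.1, and Il2rb at 50.1, 105 and 90.1 CPM against 29.9, 16.7 and 21.4. Prdm1, which encodes the BCL6 antagonist BLIMP-1, had 9, 4 and 3 UMIs in members, too few for a comparison. Foxo1 was 1.05, 0.918 and 1.07 times its marker-free level.

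Over all genes outside the rule, those at the high end in all 3 libraries were Maf, Eea1, Nav2, Tbc1d4, Ptpn13, Ikzf2, Igf1r, Nt5e, Tnfsf8, Tiam1, Tnfrsf4 and Plcl1. Tbc1d4, a Rab GTPase-activating protein, was at 320, 476 and 485 CPM in members against 65.4, 64.7 and 53.2. Eea1, an early endosome tether, was at 209, 240 and 215 CPM against 26.0, 26.3 and 23.3, and Nav2, a neuron navigator family gene, at 205, 259 and 128 CPM against 17.6, 12.9 and 17.8. Ikzf2, which encodes Helios, was at 780, 823 and 966 CPM against 185, 85.8 and 87.8. The receptor tyrosine kinase gene Igf1r was at 369, 403 and 470 CPM against 82.9, 97.8 and 130. At the low end stood Igfbp4, Rasgrp2, Cd55, St8sia6, Rapgef4, Ccr7, Lhfpl3 and Arl4c, of which Igfbp4, a gene of naive T cells, was at 141, 116 and 102 CPM against 355, 265 and 276. Several of these genes also stood apart from marker-free levels in the Foxp3-positive barcodes. There, Ikzf2 was at 1326, 1142 and 1241 CPM and Tnfrsf4 at 304, 230 and 187 CPM, above the members' Tnfrsf4 levels of 140, 116 and 79.5. Nt5e was at 210, 172 and 212 CPM and Igfbp4 at 139, 65.6 and 83.0 CPM in that gate. Maf (287, 437 and 460 CPM) and Tnfsf8 (51.8, 81.8 and 133 CPM) were lower there than in members.

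Members were also split by the markers they carried, after values were seen. A group of 36 (24.7%), 27 (34.6%) and 46 (36.2%) members held Cxcr5 and Bcl6 alone, the pair whose gate-wide shares did not exceed those of the CD8 gate. Their Maf levels were 66.3, 309 and 92.3 CPM on 11, 57 and 25 UMIs, which was 1.11 (0.553 to 2.01), 5.55 (4.13 to 7.35) and 1.58 (1.02 to 2.36) times the marker-free level. Members with Pdcd1, Il21 or Tox2 stood at 831, 997 and 800 CPM for Maf and at 460, 448 and 364 CPM for Icos, against 127, 119 and 88.6 CPM for Icos in those with Cxcr5 and Bcl6 alone. The latter Icos levels, on 21, 22 and 24 UMIs, were 1.58 (0.974 to 2.44), 1.81 (1.13 to 2.78) and 0.871 (0.555 to 1.30) times the marker-free level. Naive genes showed the reverse order. Klf2 was at 182, 181 and 110 CPM in members with Pdcd1, Il21 or Tox2 and at 404, 390 and 436 CPM in members with Cxcr5 and Bcl6 alone, next to 412, 390 and 513 CPM without markers. Lef1 was at 779, 619 and 504 CPM against 1356, 1013 and 1395. All Sostdc1 UMIs lay in members with Pdcd1, Il21 or Tox2. Other genes were above the marker-free level in members with Cxcr5 and Bcl6 alone. Ikzf2 was at 452, 628 and 675 CPM there, 2.45, 7.32 and 7.69 times that level, and Izumo1r at 241, 287 and 196 CPM, 2.12, 2.87 and 1.74 times. Eea1 was at 121, 103 and 44.3 CPM and Nav2 at 66.3, 75.8 and 33.2 CPM, each on 20 or fewer UMIs a library.

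Maf and Icos were higher and Klf2 lower in members with Pdcd1, Il21 or Tox2 than in members with Cxcr5 and Bcl6 alone. The few UMIs of the latter leave wide intervals. By construction, every member with 3 or more markers fell in the former group, and the latter held exactly 2 markers. Median depth was 5517, 5937 and 5205 UMIs in the former and 3946, 6214 and 5438.5 in the latter. The part of marker number and depth in this contrast was not tested. Cd74, a gene that B cells also express, differed between these groups, in a direction that was not the same in each library. It was at 311, 351 and 281 CPM with Pdcd1, Il21 or Tox2 and at 953, 184 and 543 CPM with Cxcr5 and Bcl6 alone. Igkc was at 289, 135 and 192 CPM with Cxcr5 and Bcl6 alone, 0.732, 0.403 and 0.932 times the marker-free level. The part of B cell RNA in that group was not tested.

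**Figure D3:**
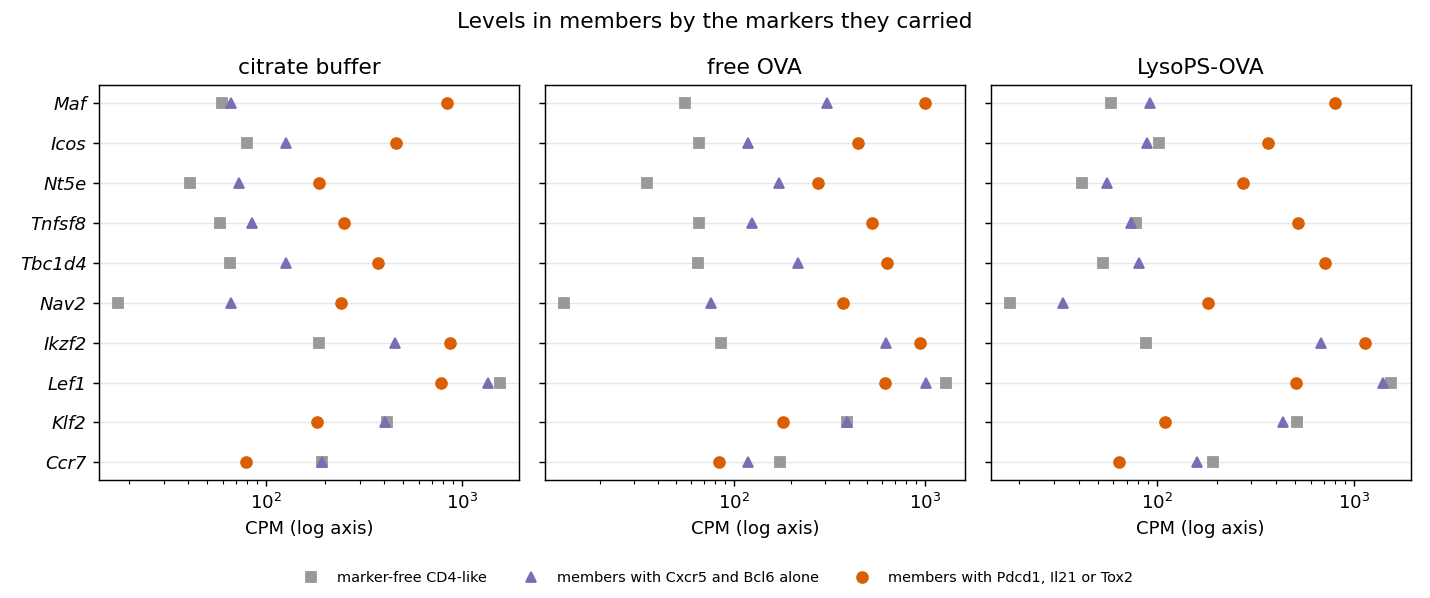
CPM on a log axis of 10 genes in marker-free barcodes (squares), in members with Cxcr5 and Bcl6 alone (triangles) and in members with Pdcd1, Il21 or Tox2 (circles), 1 panel per library with no error drawn. In each panel the circles are highest for the 7 genes from Maf to Ikzf2 and lowest for Lef1, Klf2 and Ccr7, and the triangles for Klf2 lie beside the squares.

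Members with an Il21 UMI numbered 29, 12 and 22. Maf was at 1306, 1980 and 1162 CPM in them and at 499, 495 and 387 CPM in the other members. Icos was at 706, 566 and 349 CPM against 304, 276 and 243, and Batf at 175, 167 and 123 CPM against 94.0, 81.3 and 38.3. Cxcr5 went the other way in each library, at 93.3, 116 and 90.4 CPM against 170, 143 and 145, in a set where an Il21 UMI itself counted toward the rule. Sh2d1a was higher with an Il21 UMI in the buffer and free OVA libraries and lower in LysoPS-OVA (168 against 235 CPM). Slamf6, Cd84 and Cd200 were higher in the buffer and LysoPS-OVA libraries. In the free OVA library these were lower, at 257 against 303, 77.2 against 229 and 77.2 against 83.8 CPM. Il4 was at 0, 64.3 and 38.7 CPM in the members with an Il21 UMI. Median depth was 5565, 5987.5 and 6425 UMIs with an Il21 UMI and 5118, 6149 and 5148 without, so the members with an Il21 UMI were the deeper ones in the buffer and LysoPS-OVA libraries.

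Genes of regulatory and follicular regulatory T cells were also high in members, although the rule required 0 Foxp3 UMIs. A count of 0 at this depth does not show that a barcode lacked Foxp3 RNA. Of the 16 listed genes, 6 were measured in all libraries, and 4 were higher in each with none lower. Their summed level was 1677, 2110 and 2009 CPM in members, 576, 378 and 447 CPM in marker-free barcodes and 3919, 3643 and 3889 CPM in Foxp3-positive barcodes of the same gate, with Lrrc32 at 0 in members of the buffer and free OVA libraries. Ctla4, the inhibitory receptor of regulatory T cells, was at 325, 581 and 421 CPM in members, 86.8, 83.2 and 139 CPM in marker-free and 801, 1030 and 1126 CPM in Foxp3-positive barcodes. Lag3 and Tigit, 2 inhibitory receptor genes, were at or above their Foxp3-positive levels. Lag3 was at 22.5, 31.0 and 68.9 CPM in members against 16.6, 7.29 and 27.2 in the Foxp3-positive gate, and Tigit at 21.3, 20.7 and 21.2 CPM against 15.5, 19.4 and 20.9. The Lag3 levels in members rested on 18, 15 and 52 UMIs. Tigit was below the 50 CPM needed for a fold call on both sides in each library. Il2ra separated the groups most clearly in the other direction, with 429, 371 and 314 CPM in the Foxp3-positive gate. The part of regulatory cells in the members' levels was not tested.

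Barcodes with a Foxp3 UMI that met the marker rule, as follicular regulatory T cells would, spanned a wider range of shares than members did. They were 8 of 216 Foxp3-positive barcodes in the buffer library (3.70%, 1.61 to 7.17), 26 of 222 in the free OVA library (11.7%, 7.79 to 16.7) and 42 of 299 in the LysoPS-OVA library (14.0%, 10.3 to 18.5). For thinning to 2000 UMIs this gate was kept as formed at full depth, unlike the CD4-like and CD8 gates. The shares were then 2.09% (0.573 to 5.28), 3.08% (1.14 to 6.58) and 5.48% (3.16 to 8.75), and their intervals overlapped. Set beside members, they made up 5.19%, 25% and 24.9% of all barcodes with at least 2 markers in both gates. Their Maf levels were 513, 428 and 851 CPM and their Ctla4 levels 1386, 1186 and 1510 CPM, on 8, 26 and 42 barcodes. Their Tnfsf8 was at 38.0, 99.6 and 157 CPM, below the levels in members.

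Most cytokine genes of other helper programs were sparse in members. Of 13 effector cytokine genes, 2 (Tgfb1 and Ltb) were measured in all libraries, and neither passed 1.5-fold in any. Ifng had 4, 0 and 5 UMIs, Il17a 2, 1 and 0, Il10 9, 0 and 0, and Il5 and Il13 none. Of the 12 genes on the Th17 list, 2 were measured in all libraries, and both (Batf and Rora) were higher in each. Rora, a nuclear receptor of that program, was at 153, 84.8 and 80.8 CPM against 34.2, 21.7 and 26.6, and Il1r1 had 22, 13 and 12 UMIs. Of the Th1 list, Stat4 was higher in each library (325, 418 and 338 CPM against 147, 140 and 170), and Tbx21 had 15, 3 and 6 UMIs. The integrin gene Itga4, from the gut homing list, was at 596, 461 and 517 CPM against 324, 293 and 310, and its gut partner Itgb7 at 166, 145 and 168 CPM against 216, 194 and 218.

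Between libraries, fold calls were more frequent in members than in the far more numerous marker-free barcodes, where 0.992% and 1.95% of genes were called higher and lower for LysoPS-OVA against buffer, 0.635% and 1.69% for free OVA against buffer, and 0.636% and 0.636% for LysoPS-OVA against free OVA. For LysoPS-OVA against buffer, 133 of 3947 genes were higher (3.37%) and 282 lower (7.14%). For free OVA against buffer, 122 of 3783 were higher (3.22%) and 395 lower (10.4%), and for LysoPS-OVA against free OVA, 205 of 3582 were higher (5.72%) and 100 lower (2.79%). The median log2 ratio over all measured genes was -0.09, -0.13 and 0.04 in these pairs. Scaling by the median of ratios in place of totals gave 203 higher and 197 lower, 204 and 254, and 166 and 130, so the excess of lower genes against buffer was not kept for LysoPS-OVA. The first 2 comparisons share the buffer library.

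Surface and help genes differed little between libraries. Of 15 measured, 2 were higher in LysoPS-OVA than in buffer (Tnfsf8 and Angptl2) and none lower, with a median log2 ratio of 0.08. For free OVA against buffer, 1 of 14 was higher and 1 lower, with a median of -0.09. Tnfsf8 was 1.68 times (1.38 to 2.04) its buffer level in the LysoPS-OVA library and 1.75 times (1.41 to 2.17) in the free OVA library, beside 1.35 and 1.13 in marker-free barcodes. In the free OVA library 48 of its 181 UMIs came from 1 barcode, without which the levels were 186, 279 and 310 CPM when the top barcode of each library was left out. Angptl2 was 3.10 (1.66 to 6.16) and 3.42 (1.75 to 7.01) times its buffer level, beside 0.541 and 0.554 in marker-free barcodes. Icos was 0.679 times (0.565 to 0.813) its buffer level in LysoPS-OVA members and 1.27 times in marker-free barcodes. Among members with Pdcd1, Il21 or Tox2 the Icos levels were 460, 448 and 364 CPM.

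Of 11 transcription factor genes, none was higher in LysoPS-OVA than in buffer and 3 were lower, namely Batf, Irf4 and Pou2af1. Batf was 0.50 times (0.338 to 0.729) and Irf4 0.543 times (0.359 to 0.809) the buffer level, with 0.933 and 0.741 in marker-free barcodes. Pou2af1, which encodes the coactivator OCA-B and is abundant in B cells, had 47, 18 and 23 UMIs and was 0.402 times its buffer level in marker-free LysoPS-OVA barcodes. Maf was 0.812 times (0.713 to 0.925) the buffer level in LysoPS-OVA and 1.09 times (0.953 to 1.25) in free OVA members. Tox and Ikzf2 were slightly higher in LysoPS-OVA members, at 1.17 (1.08 to 1.27) and 1.24 times (1.11 to 1.38), whereas both were lower in marker-free barcodes (0.793 and 0.475).

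Of the regulatory T cell list, 3 of 9 measured genes were higher and 1 lower in LysoPS-OVA than in buffer members, with a median log2 ratio of 0.31, and 3 of 8 were higher and none lower in free OVA members, with a median of 0.05. Over all genes 3.37% and 3.22% were higher, with medians of -0.09 and -0.13. Itgb8 and Nrp1 were higher in both, Tnfrsf9 in LysoPS-OVA and Ctla4 in free OVA. The lower gene was Tnfrsf4, which encodes the costimulatory receptor OX40, at 140, 116 and 79.5 CPM, 0.567 times (0.407 to 0.783) its buffer level in LysoPS-OVA members and 0.470 times in marker-free barcodes. Il2ra was at 95.1, 64.1 and 62.3 CPM. Itgb8, the integrin chain that activates TGF-beta, was at 30.03, 112 and 90.1 CPM, from 7, 14 and 21 members. It was 3.0 times (1.86 to 5.0) its buffer level in LysoPS-OVA and 3.72 times (2.26 to 6.29) in free OVA, beside 1.38 and 1.02 in marker-free barcodes. In the buffer library 12 of its 24 UMIs came from 1 barcode. Nrp1, which encodes neuropilin-1, was at 28.8, 86.9 and 95.4 CPM, 3.31 times (2.05 to 5.55) and 3.02 times (1.77 to 5.26) its buffer level, whereas in marker-free barcodes the ratios were 0.703 and 0.397. Of genes outside that list, Il2rb was 1.80 (1.20 to 2.73) and 2.11 times (1.37 to 3.27) its buffer level. Lag3 and Tnfrsf9, which encodes the costimulatory receptor 4-1BB, were highest in the LysoPS-OVA library. Lag3 was at 22.5, 31.0 and 68.9 CPM and 3.06 times (1.76 to 5.55) buffer and 2.22 times (1.23 to 4.25) free OVA, and Tnfrsf9 was at 41.3, 41.4 and 87.4 CPM, 2.12 (1.37 to 3.32) and 2.11 times (1.27 to 3.68). Among members with Pdcd1, Il21 or Tox2 the buffer library was again the lowest, with Itgb8 at 37.9, 107 and 134 CPM, Nrp1 at 26.8, 90.3 and 130 CPM and Tnfrsf9 at 42.6, 50.2 and 118 CPM.

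**Figure D4:**
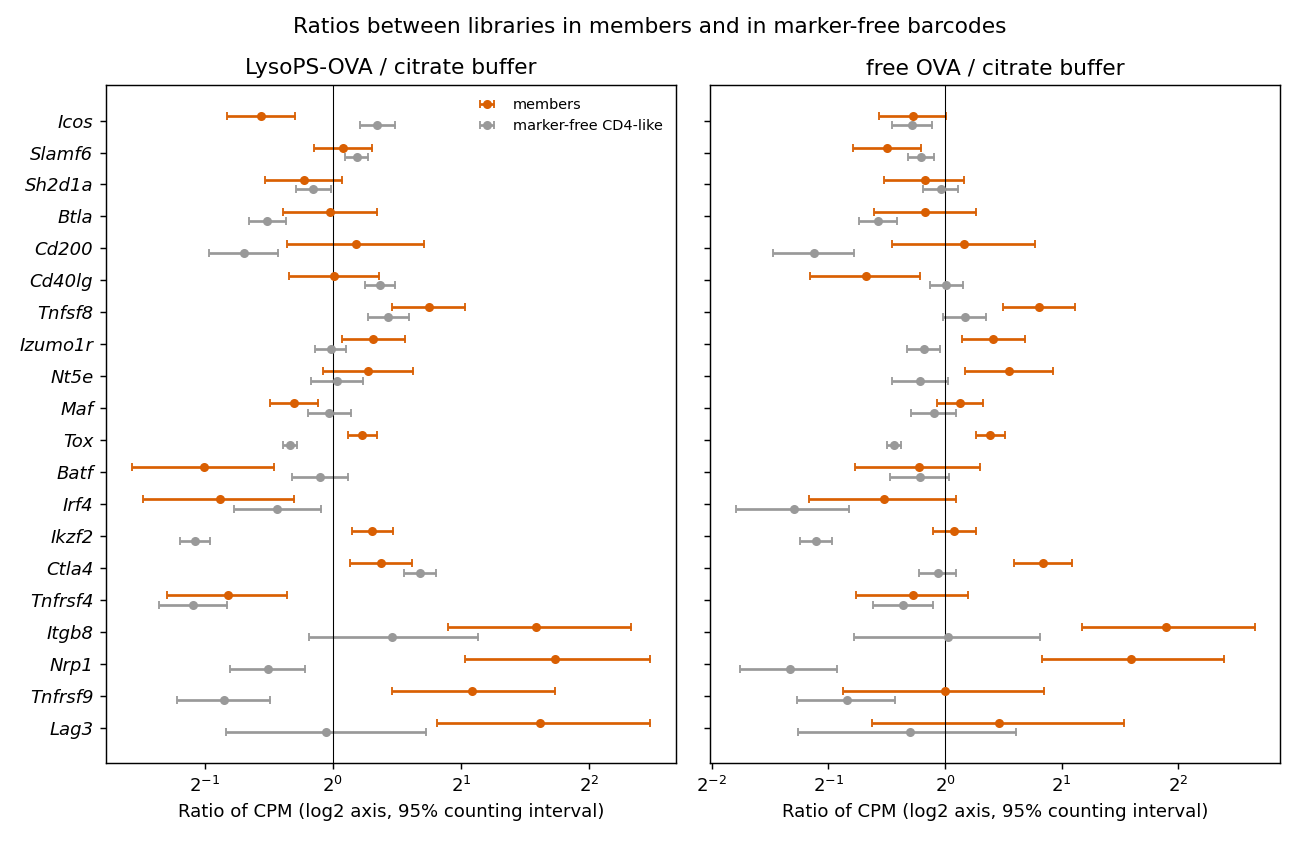
Ratio of CPM to the citrate buffer library on a log2 axis for 20 genes, in members (orange) and in marker-free CD4-like barcodes (grey); bars are 95% conditional binomial intervals for counting error. Itgb8 and Nrp1 lie right of 1 in members for both OVA libraries, Batf and Irf4 lie left of 1 for LysoPS-OVA, and Icos in members and marker-free barcodes lies on opposite sides of 1 for LysoPS-OVA.

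Genes of the early response to T cell receptor signals were higher in LysoPS-OVA members for 5 of 11 measured and lower for none, with a median log2 ratio of 0.52, beside 3.37% higher and a median of -0.09 over all genes. In marker-free barcodes 2 of 9 were higher and none lower, with a median of 0.37. The 5 were Dusp1, Fos, Ier2, Junb and Tnfaip3, at 2.43, 1.98, 1.99, 1.53 and 1.57 times the buffer level in members. Marker-free barcodes gave ratios above 1 for the same 5, in that order 1.67, 2.12, 1.13, 1.30 and 1.40. For free OVA against buffer, 1 of 9 early-response genes was higher in members and none was lower. The median log2 ratio was 0.19, beside -0.13 over all genes. In marker-free barcodes of that pair none of 8 was higher or lower, with a median of 0.12. The heat shock list also had 3 of 8 measured genes higher than buffer and 0 lower, in LysoPS-OVA members and in marker-free barcodes. Its median log2 ratio was 0.17 in members and 0.51 in marker-free barcodes. For free OVA against buffer, 2 of 7 heat shock genes were higher in members and 3 of 8 in marker-free barcodes, with none lower. The cause of these shifts was not tested. The immediate receptor target Egr1 was at 83.8, 82.7 and 99.3 CPM in members. Of the receptors for lysophosphatidylserine, Gpr174 was at 143, 105 and 148 CPM and P2ry10 at 65.1, 68.2 and 118 CPM in members, beside 91.6, 79.1 and 95.3 CPM and 76.7, 61.2 and 101 CPM in marker-free barcodes. Gpr34 had 1 UMI in members of each library.

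The cell cycle list had the lowest median of all lists in both comparisons with buffer. Of 8 measured, 6 were lower than buffer in LysoPS-OVA members and the same number in free OVA members, with median log2 ratios of -1.98 and -2.03. Mki67, which encodes the proliferation antigen Ki-67, was at 125, 10.3 and 6.62 CPM and Top2a, the replication topoisomerase gene, at 195, 12.4 and 6.62 CPM. Their LysoPS-OVA to buffer ratios were 0.0529 (0.0168 to 0.128) and 0.0339 (0.0109 to 0.0809), while marker-free barcodes gave 0.122 and 0.195. Hmgb2 was at 678, 182 and 234 CPM. Barcodes with UMIs of at least 3 of 11 cycle genes, a criterion set after the values were seen, were 24 of 146 members in the buffer library (16.4%, 10.8 to 23.5), 1 of 78 in the free OVA library (1.28%, 0.0325 to 6.94) and 0 of 127 in the LysoPS-OVA library (upper bound 2.86%). Marker-free barcodes gave 4.73%, 1.77% and 1.11%, the same order with a smaller gap, whereas Foxp3-positive barcodes gave 3.24%, 4.05% and 2.01%, where the buffer library was not the highest.

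The cycling buffer members carried the follicular helper genes as well. Maf was at 807 CPM and Icos at 477 CPM in the 24, against 634 and 366 CPM in the other 122 buffer members. Median depth was 6453.5 UMIs in the cycling and 4890.5 in the other members, and the doublet caller marked 29.2% of the cycling members. The part of doublets and depth in this share was not tested. With cycling barcodes left out, Maf in members was at 634, 757 and 546 CPM.

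**Figure D5:**
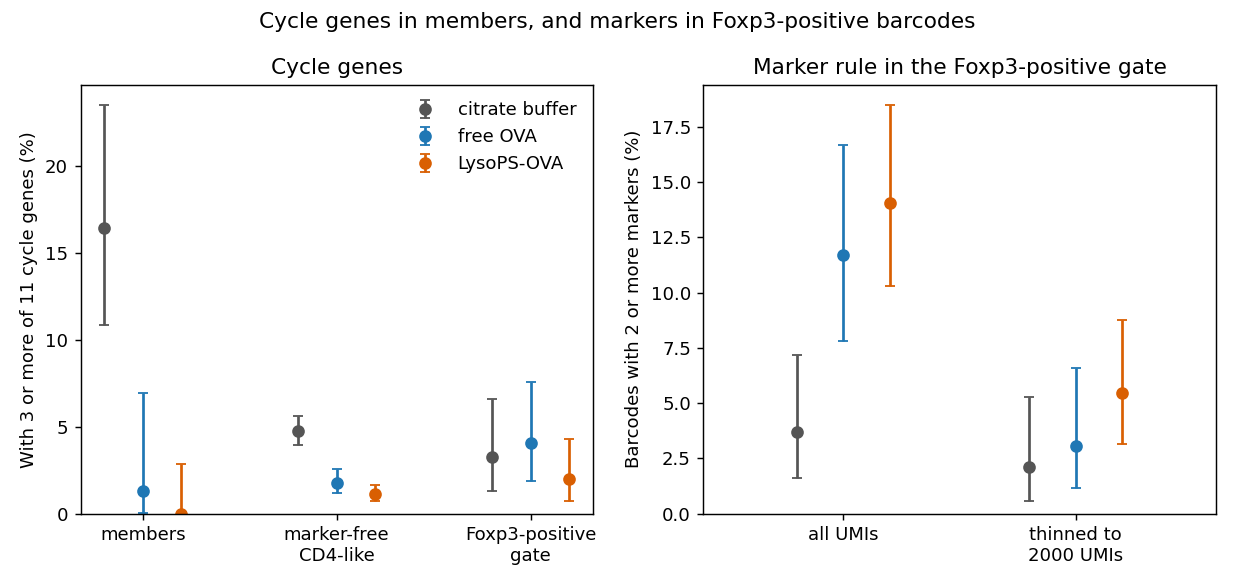
Left, percent of barcodes with UMIs of at least 3 of 11 cycle genes in members, marker-free CD4-like and Foxp3-positive barcodes; right, percent of Foxp3-positive barcodes with at least 2 of the 5 markers, with all UMIs and thinned to 2000. Points are single libraries with 95% exact binomial intervals; buffer members stand at 16.4% on the left, and on the right the shares run from 3.70% to 14.0% before thinning.

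Several genes with the largest ratios between libraries rested on very few members. In the LysoPS-OVA library 57 of 69 Ptprm UMIs and 70 of 98 Tmcc3 UMIs came from 1 barcode each. In the free OVA library the same held for 46 of 50 Jchain, 39 of 50 Adam12, 29 of 37 Ryr2 and 25 of 35 Olfr372 UMIs, and the 49 Ntng1 UMIs lay in 4 barcodes. Adgrl3 had 43 of its 45 buffer UMIs in 1 barcode. These values describe single barcodes rather than libraries. Others were spread: Cpq, a plasma carboxypeptidase gene, was seen in 20, 22 and 43 members at 41.3, 91.0 and 142 CPM, and was 3.43 times (2.30 to 5.24) its buffer level in LysoPS-OVA members beside 1.08 in marker-free barcodes. Gpm6b, a membrane proteolipid gene, was seen in 11, 17 and 33 members at 42.5, 128 and 167 CPM; its ratios to buffer were 3.92 for LysoPS-OVA and 3.01 for free OVA in members and 2.01 and 2.29 in marker-free barcodes. Cyfip1, a regulator of actin assembly, was seen in 23, 27 and 36 members and was 3.89 times (2.57 to 5.99) its buffer level in free OVA members, beside 1.01 in marker-free barcodes. Colec12 and Ifi214 were lower in free OVA members, with 52, 13 and 65 and with 50, 11 and 55 UMIs. Their ratios of free OVA to buffer were 0.413 (0.206 to 0.770) and 0.364 (0.171 to 0.708) in members and 0.706 and 0.537 in marker-free barcodes, on the same side of 1.

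Markers of other cell types were present at low levels, and their part in the results was not tested. All 9 B cell markers were above 0 in each library, with a summed level of 1147, 1545 and 943 CPM in members against 1649, 1047 and 769 CPM in marker-free barcodes. In the free OVA library 336 of 417 Igkc UMIs and 46 of 50 Jchain UMIs lay in the same 1 barcode, without which the B cell sum was 860 CPM, below the marker-free level. Germinal centre B cell markers summed to 126, 86.9 and 119 CPM against 92.2, 62.5 and 64.7, with Rgs13 and Gcsam at 0 in members of both OVA libraries. Myeloid and dendritic markers summed to 582, 358 and 381 CPM against 895, 632 and 302, plasma cell markers to 67.6, 132 (33.6 without that barcode) and 50.3 CPM with Sdc1 at 0, and NK markers to 30.03, 39.3 and 82.1 CPM. Gamma delta T cell markers summed to 23.8, 53.8 and 49.0 CPM against 21.0, 15.5 and 17.2, with Tcrg-V6 and Trdv4 at 0, and stromal markers to at most 8.76 CPM. Trdc, a gamma delta marker, had 17, 25 and 34 UMIs in only 4, 2 and 7 members. In the free OVA library 14 of its 25 UMIs lay in 1 barcode.

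The B cell partners of these cells in the germinal centre were counted in the same libraries. B-gate barcodes with at least 2 of 6 germinal centre markers were 6.39% (5.73 to 7.09), 5.25% (4.67 to 5.87) and 3.75% (3.26 to 4.30) of the B gate, at median depths of 3428, 5027 and 4389 UMIs.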

How the data were processed

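Single-cell RNA of mesenteric lymph node was measured in 3 droplet libraries, 1 per group. The authors deposited filtered matrices of raw UMI counts for 32285 genes, made with Cell Ranger 7.2.0 on genome build mm10, per the submitters' processing notes; the annotation version and intron setting are not given in the sources used here. For each class of barcodes, UMI sums were formed within each library and scaled to CPM. Genes were compared when the higher side reached 50 CPM with 30 UMIs, on log2(CPM + 10), and called at 1.5-fold. Intervals are exact binomial for shares, conditional binomial for ratios of CPM and log-scale (Katz) for ratios of shares; no test was run. Scrublet, through scanpy 1.11.5, marked 17.0%, 5.92% and 7.49% of kept barcodes as doublets, which stayed in; their removal was an alternative. Fold calls were tested on simulated library totals with counting error alone, which hold no spread between barcodes. The members and the 24 gene lists were chosen with earlier results of these data known. Named genes were the rule genes, the follicular helper lists, the 4 farthest from 0 of other lists, the 12 highest and 8 lowest against marker-free barcodes and 8 per direction and pair of libraries. Tnfrsf9, Ctla4, Itgb7, Egr1, Gpr174, P2ry10, Stat4, Cd74, Igkc, Xist and the 5 early-response genes, where outside this rule, were chosen after their values were seen.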

Additional observations from a re-analysis of the deposited data

How the results depend on the processing

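Of 135 values recomputed under alternatives, 103 kept within 1.5 times the count, or within the interval of the ratio, and 32 moved. The ratios of member shares of the CD4-like gate, whose intervals all held 1, changed their side of 1 under several alternatives. They moved to 0.628 (LysoPS-OVA over buffer) and 0.688 (LysoPS-OVA over free OVA) with barcodes thinned to 2000 UMIs, to 0.692 and 0.645 (LysoPS-OVA and free OVA over buffer) without Bcl6 in the rule, and to 1.30 and 1.24 without Tox2. With a pseudocount of 50 CPM, higher and lower genes were 49 and 89 for LysoPS-OVA against buffer, 59 and 139 for free OVA against buffer, 38 and 31 for LysoPS-OVA against free OVA, and 111 and 9 for members against marker-free barcodes. A pseudocount of 1 CPM gave 154 lower genes for LysoPS-OVA against free OVA. Without a filter on low counts the pairs gave 638 and 1130, 730 and 1494, 1017 and 757, and members against marker-free barcodes 331 and 31, with more genes compared by construction. Median-of-ratios scaling gave 203 higher for LysoPS-OVA and 204 higher and 254 lower for free OVA against buffer, and 48 lower in members against marker-free barcodes. Members with at least 3 markers gave 127 higher for LysoPS-OVA against free OVA and 140 lower against marker-free barcodes. Members with Pdcd1, Il21 or Tox2 alone, an alternative chosen after seeing the data as was leaving out cycling barcodes, gave 603 lower for free OVA against buffer, 327 higher for LysoPS-OVA against free OVA and 66 lower against marker-free barcodes. Other causes were not tested. No paired analysis was possible because each group has 1 library. With 78 to 146 members per library, ratios of genes near 30 UMIs have wide counting intervals, and no spread between animals can be given.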
